A study of Mus musculus with 50 samples.

Results

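The comparison set 2 RNA-seq libraries of mouse embryonic stem cells that had lost G9a, Suv39h1, Suv39h2 and Setdb1 (G9a;Suv39h1/2;Setdb1-QKO, here QKO) against 2 libraries of control cells. Members were all genes at 1 TPM or more (transcript abundance corrected for gene length and library size) in at least 2 of these 4 libraries, which kept 12837 of the 24412 genes in the table. The series measured 50 libraries of TT2 embryonic stem cells in 25 groups of 2, in 2 tables of TPM values. The first table holds 9 genotypes and 18 libraries, among them a QKO line that also lacks Dux. The second holds lines that carry an inducible Dux transgene and lack endogenous Dux (genotype field, Tet-on-Dux:Dux-KO). Only its libraries titled dox0 are compared here, while all of its libraries enter the estimate of the spread. Titles give the QKO line as 3S1G with the word OHT and the control line as 33-6 with the word NT. The labels do not explain these words, so gene loss, line and OHT cannot be told apart within this comparison. Whether the 2 libraries of a group came from separate cultures is not given, so the p-values cover only the spread between these libraries, which may be technical.

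Methylation of lysine 9 of histone H3 marks silent chromatin. G9a (gene symbol Ehmt2), with its partner Ehmt1, places the mono- and dimethyl marks over euchromatin, the Suv39h enzymes place the trimethyl mark over satellite repeats and other heterochromatin, and Setdb1 trimethylates retrotransposons, to which KRAB zinc finger proteins and Trim28 recruit it, and some germline genes. In mouse embryonic stem cells these enzymes hold down germline genes, endogenous retroviruses and the transcripts of the 2-cell embryo, many of which are activated by the homeodomain factor Dux.

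All 4 targeted genes were read lower in QKO than in control, with residual transcripts, and 2 of the 4 were called lower. Ehmt2 stood at 17.7 and 16.7 TPM in QKO and 83.6 and 91.1 TPM in control (log2 fold change -2.28, SE 0.132, adjusted p = 2.9e-09), and Suv39h1, which is X-linked, at 11.5 and 11.1 TPM in QKO and 33.97 and 31.7 TPM in control (log2 fold change -1.45, SE 0.127, adjusted p = 2.8e-07). Setdb1 was at 28.9 and 26.8 TPM in QKO and 48.8 and 53.2 TPM in control (log2 fold change -0.85) and Suv39h2 at 13.3 and 16.2 TPM in QKO and 21.05 and 20.7 TPM in control (log2 fold change -0.48), and neither passed the size threshold. Gene-level TPM does not show which exons are missing, so a transcript that remains after a small deletion is counted. By limma, 0 of the 4 were called lower and 1 higher in QKO than in G9a;Setdb1-DKO, which keeps Suv39h1 and Suv39h2 by its label. Against G9a;Suv39h1/2-TKO, which keeps Setdb1, 0 were called. In each comparison 2 had an unadjusted p under 0.05. The loss of Setdb1 and Suv39h2 is taken from the labels. All 16 embryonic stem cell markers were at 1 TPM or more in all 4 libraries, and 18 fibroblast and feeder markers summed to 15.6 and 11.1 TPM in QKO and 15.4 and 14.4 TPM in control. Between 12541 and 12704 genes reached 1 TPM in QKO libraries, against 11881 and 11906 in control libraries. Read depth is unknown, because TPM values are scaled to the same sum in every library.

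More genes were higher than lower in QKO. A gene was called where limma's test on log2(TPM + 1) gave a Benjamini-Hochberg adjusted p under 0.05 over 13862 genes and the log2 fold change was at least 1 in size; on this scale the change of low genes is understated. Of the 12837 members, 1382 were called higher in QKO and 749 lower, and 10706 were not called. With a pseudocount of 0.1 in place of 1, 2133 of the genes tested were called higher. Over all 13862 genes tested, 10.1% were called higher and 5.42% lower, and the QKO and control libraries did not overlap in 79.6%. The median log2 fold change of the members was -0.08, and replicates correlated across genes at r = 0.9916 in QKO and 0.9965 in control.

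The direction of the calls followed the level at which a gene was read in control-type cells. Among the 11275 members at 1 TPM or more in all 4 libraries, 696 were called higher and 619 lower. Another 873 members passed only through the QKO libraries, and 612 of these were called higher, while 260 passed only through the control libraries and 102 of them were called lower; these members had to differ, so their counts describe the rule. Serpina3k, Snhg10 and Igtp lay just inside the threshold, with second-highest values of 1 to 1.002 TPM, and Nlgn3, Dagla and Mogat2 just outside it, with 0.998 TPM. Levels in the second table's control libraries, which the rule did not use, give the same view. Of 196 members at 0 to 0.1 TPM there, 91.8% were called higher, and of 730 members at 0.1 to 1 TPM, 48.5%. A member this low in control cells could hardly pass except through QKO libraries, so these shares follow largely from the rule. The share was 12.9% of 3961 members at 1 to 10 TPM, 4.59% of 6343 members at 10 to 100 TPM and 2.74% of 1606 members above 100 TPM. The share called lower ran between 1.02% and 7.22% over the same classes.

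**Figure D1:**
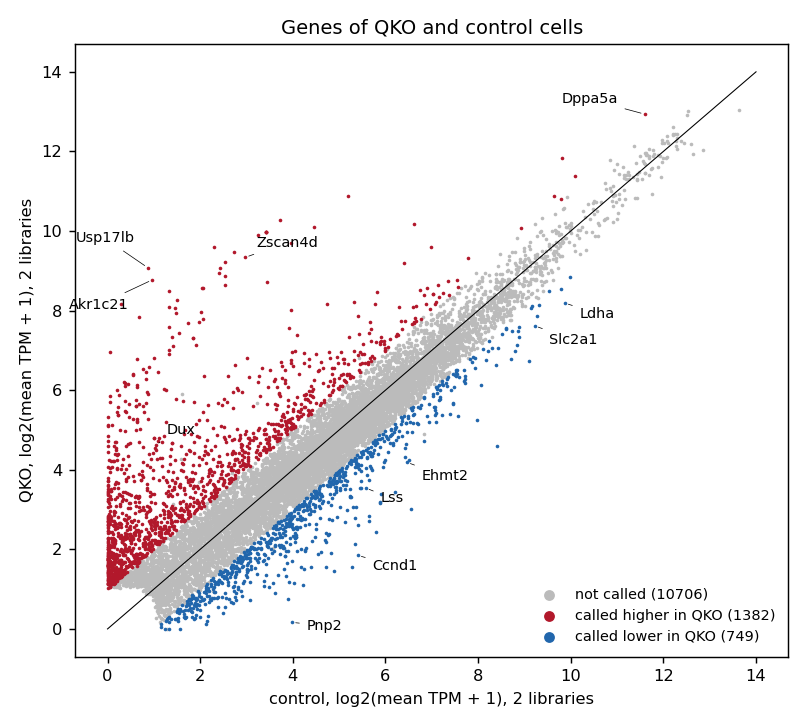
Log2 of the mean TPM + 1 of the 2 QKO libraries (y axis) against that of the 2 control libraries (x axis), with 1 point per member and the diagonal drawn as a line. The 1382 members called higher crowd at the low end of the control axis, where Usp17lb and Akr1c21 stand far above the diagonal, while the 749 called lower, Ccnd1 and Pnp2 among them, spread along it.

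Genes called higher held 8.09% and 8.36% of all TPM in QKO libraries, against 1.84% and 1.91% in control libraries. Genes called lower held 1.58% and 1.33% in QKO and 3.92% and 3.79% in control. Predicted or Riken-type names made up 16.9% of the genes called higher, 4.01% of those called lower and 6.11% of all members. By GENCODE class, 37 of 100 long intergenic RNAs and 19 of 67 antisense genes were called higher, against 1203 of 11976 protein-coding genes. Of 247 members with predicted Gm names, 77 passed the 1 TPM rule through QKO libraries alone. The part of that rule in the shares by name and class was not tested.

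Genes of the 2-cell embryo stood at the top of the list. Dux, the factor that starts this programme, stood at 25.7 and 21.8 TPM in QKO and 0.971 and 1.15 TPM in control (log2 fold change 3.58, SE 0.12, adjusted p = 4.5e-12). Usp17lb, a deubiquitinase gene of the Usp17-like family, stood at 542 and 538 TPM in QKO and 0.684 and 0.962 TPM in control (log2 fold change 8.22, SE 0.119, adjusted p = 2.3e-15), the highest fold among named genes. Obox4, an oocyte-type homeobox gene, stood at 842 and 706 TPM in QKO and 4.08 and 3.77 TPM in control (log2 fold change 7.29, SE 0.142, adjusted p = 2.3e-14). Zscan4d, of a family that marks the 2-cell-like state and acts at telomeres, was at 609.7 and 683 TPM in QKO and 6.87 and 6.86 TPM in control (log2 fold change 6.36, SE 0.188, adjusted p = 1.3e-12). In these 4 genes every QKO library lay above every control library. In bulk RNA, more cells in such a state and more transcript per cell cannot be told apart.

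All 5 Zscan4 genes in the table were at 1 TPM or more in every library and were called higher, with a median log2 fold change of 5.71. The Usp17-like genes (5 of 5 called higher), the Tdpoz speckle-type genes (5 of 5), the Tcstv genes (4 of 4), the Obox genes (4 members of 8 in the table) and the Pramel leucine-rich repeat genes (10 members of 12) all moved the same way, but 18 of these 28 members passed the 1 TPM rule through QKO libraries alone. The 6 families together held 0.879% and 0.893% of TPM in QKO and 0.0122% and 0.0135% in control. Genes of a family are related copies, some of them near-identical, so the split of reads among them is uncertain. The likeness of their transcripts was not computed. Outside the multicopy families, 23 of 28 listed 2-cell genes were called higher and 1 was called lower (median log2 fold change 2.16, beside -0.08 over all members); 11 of the 28 passed through QKO alone. Zfp352, a zinc finger gene, stood at 111 and 107 TPM in QKO and 0.431 and 0.667 TPM in control (log2 fold change 6.15, SE 0.17, adjusted p = 6.2e-13), and Arg2, a mitochondrial arginase, at 62.4 and 63.9 TPM in QKO and 1.23 and 1.56 TPM in control (log2 fold change 4.75, SE 0.141, adjusted p = 1.3e-12). The gene called lower was Kif26a, a kinesin-like gene, at 0.986 and 0.729 TPM in QKO and 4.65 and 4.99 TPM in control (log2 fold change -1.65). For none of these 3 genes did QKO and control libraries overlap.

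The Zscan4 promoters carry the letters of the paired homeobox site that Dux binds, and they are shown because these genes rose furthest among the 12 members that hold a match. The search looked for TGATT and ATCA parted by any 2 bases, on both strands of RefSeq promoters (GRCm38.p6, 250 bases before to 50 after each gene's start). Each line below is the 150 bases before the start, 5′ to 3′ on the gene's strand, with the match in capitals in its reverse complement form.
Zscan4b: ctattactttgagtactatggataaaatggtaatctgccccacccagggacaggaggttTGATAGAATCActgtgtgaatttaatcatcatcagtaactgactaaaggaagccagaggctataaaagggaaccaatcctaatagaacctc
Zscan4c: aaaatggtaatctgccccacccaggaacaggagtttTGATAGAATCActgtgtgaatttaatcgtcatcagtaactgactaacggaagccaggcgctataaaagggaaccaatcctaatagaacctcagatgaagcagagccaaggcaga
Zscan4d: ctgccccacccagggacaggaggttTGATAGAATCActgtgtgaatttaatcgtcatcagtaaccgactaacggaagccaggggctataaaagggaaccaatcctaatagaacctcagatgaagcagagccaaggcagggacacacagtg
Zscan4f: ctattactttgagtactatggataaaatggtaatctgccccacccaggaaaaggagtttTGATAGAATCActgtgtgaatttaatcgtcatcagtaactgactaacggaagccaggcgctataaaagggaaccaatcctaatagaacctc
Their places are chr7:10905051-10905200 (minus strand), chr7:11005595-11005744 (plus), chr7:11166149-11166298 (minus) and chr7:11397765-11397914 (plus). The match began 91 bases before the start in Zscan4b and Zscan4f, 114 bases before it in Zscan4c and 125 bases before it in Zscan4d. Over 71 bases centred on the match, Zscan4c and Zscan4f were identical at 70 positions, Zscan4b and Zscan4c at 68 and Zscan4b and Zscan4f at 67. Counts are per gene, and a gene with more than 1 promoter counts if any of them holds a match. Among members called higher that have a promoter, 5 of 962 held the letters (0.52%). Of these, all but Abcb5, a transporter gene (log2 fold change 2.34), are the near-identical Zscan4 copies above, so the share rests mostly on that family. The letters were in 1 of 538 members called lower (0.186%), 6 of 8223 members not called (0.073%) and 66 of all 27025 genes with a promoter (0.244%). The match describes letters in a window and says nothing about binding.

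The highest genes outside these families formed several tissue-restricted groups. Akr1c21, an aldo-keto reductase of steroid metabolism, stood at 406 and 465 TPM in QKO and 0.673 and 1.22 TPM in control (log2 fold change 7.82, SE 0.146, adjusted p = 1.7e-14). Cox7b2, a testis-type subunit of cytochrome c oxidase, was at 191 and 300.2 TPM in QKO and 2.37 and 1.23 TPM in control (log2 fold change 6.45, SE 0.252, adjusted p = 2.7e-11), and Mmp1b, an interstitial collagenase gene, at 109 and 138 TPM in QKO and 0 and 0.0668 TPM in control (log2 fold change 6.90, SE 0.16, adjusted p = 1.1e-13). In each, both control libraries lay far below both QKO libraries. A run of 6 neighbours from Akr1c14 to Akr1e1 (chr13:4049011-4609174) were all called higher, with log2 fold changes from 1.17 to 7.82, and 6 of 11 members of the aldo-keto reductase list were called higher and 0 lower; 3 of the 11 passed through QKO libraries alone.

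A further pair of classes of gene with tissue-restricted roles rose in part. Of 17 cytochrome P450 members, 7 were called higher and 1 lower (median 0.85), led by Cyp4a12b, a fatty acid hydroxylase gene, at 35.8 and 31.7 TPM in QKO and 0 and 0.0272 TPM in control (log2 fold change 5.10, SE 0.116, adjusted p = 9.6e-14). Of 14 serpins, 6 were called higher and 1 lower (median 0.61), with Serpine2, a thrombin inhibitor, at 68.05 and 54.02 TPM in QKO and 6.48 and 6.47 TPM in control (log2 fold change 3.04) and Serpinf1, the anti-angiogenic factor PEDF, at 0.828 and 0.376 TPM in QKO and 5.44 and 5.17 TPM in control (log2 fold change -1.99). Reg1, a secreted pancreatic lectin gene, stood at 31.7 and 36.5 TPM in QKO and 0.137 and 0 TPM in control (log2 fold change 5.04). Of these, 6 of the 17 P450 members and 5 of the 14 serpins passed through QKO libraries alone.

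Germline genes of the X chromosome rose as blocks. Xlr3b, of a lymphocyte-regulated family expressed in meiotic germ cells, stood at 23.8 and 25.7 TPM in QKO and 0.348 and 0.836 TPM in control (log2 fold change 4.03, SE 0.215, adjusted p = 1.1e-09), and Magea8, a melanoma antigen gene of the testis, at 15.6 and 20.6 TPM in QKO and 0.0516 and 0 TPM in control (log2 fold change 4.21, SE 0.131, adjusted p = 2e-12). Rhox5, a reproductive homeobox gene, was at 286 and 229.5 TPM in QKO and 14.7 and 14.6 TPM in control (log2 fold change 4.04, SE 0.124, adjusted p = 1.8e-12). The libraries of QKO and control did not overlap for any of the 3. All 9 Xlr members, 9 of 10 Magea and Mageb members (16 in the table) and 5 of 7 Rhox members (31 in the table) were called higher, though 8 Xlr and 9 Magea or Mageb members passed through QKO alone. On the whole X chromosome 23.1% of 455 members were called higher, against 10.8% of all members.

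Some called genes lay next to each other in the order of members along a chromosome. Genes that were not members were skipped, here and in the other runs named, so the run from Mageb4 to Mageb1 spans 5766.1 kb. All 5 Tdpoz members and 8 of 9 Xlr members passed through QKO libraries alone. The number of runs to expect was not computed. Ordered by start along GRCm38 (GENCODE M21), members called higher formed 43 runs of 4 or more consecutive members with 234 genes, and members called lower formed 7 runs with 31 genes. The longest runs held 16 genes around the Pramel family (chr4:143394428-144408464), 13 genes around Tdpoz (chr3:93520488-94434668) and 11 predicted genes (chr12:87514316-88324026). A run of 7 genes from Clec2i to Clec2d (chr6:128887588-129186534), lectin-like receptor genes with an antisense gene and 2 annotated pseudogenes among them, had log2 fold changes of 1.37 to 5.84, and 5 genes from Clec4g to Cd209f (chr8:3707064-4105835) of 1.79 to 4.80. Within these, Clec2f, annotated as a pseudogene, was at 59.7 and 65.9 TPM in QKO and 0 and 0.293 TPM in control and Cd209c, a C-type lectin, at 66.04 and 62.6 TPM in QKO and 1.39 and 1.3 TPM in control. Neither gene's QKO libraries overlapped its control libraries. Many of these runs are arrays of paralogs, among which reads may be shared.

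Promoters of the genes called higher held fewer CpG than those of the other members. Of the 1382 members called higher, 612 passed the 1 TPM rule through QKO libraries alone. The part of that rule in the promoter contrasts of this paragraph was not tested. For a gene with more than 1 RefSeq promoter of 300 bases, the highest CpG count was taken, and a motif in any of them was counted. The median per gene was 12 CpG in members called higher, 21 in members called lower and 23 in members not called. It was 8 over all 27025 genes with a promoter. Among members under 1 TPM in the second table's control libraries the median was 5 CpG in 374 genes called higher and 15 in 261 not called. At 10 TPM or more it was 20 in genes called higher, 21 in genes called lower and 24 in genes not called. Genes whose highest count was 5 or fewer CpG made up 29.6% of members called higher, 7.62% of those called lower and 4.46% of those not called. The promoter of Akr1c21, called higher, and that of Lss, a cholesterol synthesis gene called lower, show the contrast; each line gives the 150 bases before the start on the plus strand, with CG in capitals.
Akr1c21: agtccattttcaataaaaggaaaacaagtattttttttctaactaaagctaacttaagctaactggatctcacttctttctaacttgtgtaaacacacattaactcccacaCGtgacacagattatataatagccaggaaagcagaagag
Lss: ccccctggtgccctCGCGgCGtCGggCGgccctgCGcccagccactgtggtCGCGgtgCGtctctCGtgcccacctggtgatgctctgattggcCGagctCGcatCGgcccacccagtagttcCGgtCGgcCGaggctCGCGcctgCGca
They lie at chr13:4573925-4574074 and chr10:76531455-76531604 (GRCm38.p6). The first holds 1 CG and the second 19. DNA methylation was not measured in these libraries. The E-box CACGTG and the motif after it were searched on both strands. The E-box was in 106 of 962 members called higher, 11.7% of those called lower and 12.1% of those not called. It was in 8.09% of all genes with a promoter. TCCCGC, a core of E2F-type sites, was in 27.2%, 42.2% and 42.1% in the same order, and in 22.0% of all genes with a promoter.

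Some abundant genes rose too. Gpx4, the glutathione peroxidase that reduces lipid peroxides, stood at 3704 and 3576 TPM in QKO and 919 and 869.8 TPM in control (log2 fold change 2.02, SE 0.185, adjusted p = 4.5e-07). Fbxo15, an F-box gene of pluripotent cells, was at 1172 and 1131 TPM in QKO and 96.96 and 98.5 TPM in control (log2 fold change 3.54, SE 0.078, adjusted p = 7.5e-14), and Dppa5a, an RNA-binding protein gene of the same cells, at 6812 and 8878 TPM in QKO and 2849 and 3327 TPM in control (log2 fold change 1.34, SE 0.123, adjusted p = 4.6e-07). The QKO libraries of all 3 lay above both control libraries. Cox6c and Apoe, a lipid carrier gene, had log2 fold changes of 1.29 and 1.20, and Apoe was at 0.88 and not called without QKO replicate 1. Of 16 stem cell markers, Dppa5a and Tbx3 (1.08) were called higher and 0 lower, with a list median of 0.18. The core factor Pou5f1 was at 2193 and 1996 TPM in QKO and 2274 and 2285 TPM in control and Nanog at 457 and 432 TPM in QKO and 366 and 359.7 TPM in control, and neither was called.

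Cholesterol synthesis had the largest share of genes called lower among the lists used here. The mevalonate pathway builds sterols and isoprenoids from acetyl-CoA, and its genes are switched on by the transcription factor Srebf2. Of 24 listed genes, 18 were called lower and 0 higher, with a median log2 fold change of -1.26, and 23 of the 24 were at 1 TPM or more in all 4 libraries. Over the alternative settings 16 to 19 were called lower.

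Enzymes called lower lay at early and late steps of the pathway. Pmvk and Mvd, a kinase and a decarboxylase of the mevalonate branch, were at 44.9 and 36.1 TPM in QKO and 151 and 146 TPM in control (log2 fold change -1.86) and at 39.4 and 32.5 TPM in QKO and 137 and 133 TPM in control (log2 fold change -1.88). Fdps, which makes farnesyl diphosphate, was at 119.8 and 98.8 TPM in QKO and 426 and 404 TPM in control (log2 fold change -1.92, SE 0.114, adjusted p = 3.9e-09). In these 3 genes no QKO library reached a control library. Lss, which closes the sterol rings, stood at 11.3 and 10.01 TPM in QKO and 47.99 and 45.4 TPM in control (log2 fold change -2.03, SE 0.118, adjusted p = 2.9e-09), and Tm7sf2, a sterol reductase, at 7.19 and 7.45 TPM in QKO and 29.99 and 32.6 TPM in control (log2 fold change -1.96, SE 0.126, adjusted p = 9.4e-09). Later enzymes were also called lower, with log2 fold changes of -1.73 for Nsdhl, -1.50 for Dhcr7, -1.10 for Sc5d and -1.08 for Msmo1; Sc5d was at -0.98 and not called without control replicate 2.

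Regulators of the pathway were also called lower. Srebf2 was at 82.8 and 64.4 TPM in QKO and 148 and 149 TPM in control (log2 fold change -1.01, SE 0.142, adjusted p = 3.4e-05) and Insig1, which holds the Srebf precursors in the endoplasmic reticulum, at 59.0 and 55.2 TPM in QKO and 127 and 130.4 TPM in control (log2 fold change -1.16, SE 0.0962, adjusted p = 1.5e-07). Each of these regulators had both QKO libraries below both control libraries. Srebf2 lost its call without QKO replicate 2 (log2 fold change -0.83) and under median-ratio scaling (-0.94). Idi1, which isomerises isopentenyl diphosphate, was at 340.4 and 419 TPM in QKO and 180.2 and 216 TPM in control (log2 fold change 0.93, not called, but called without QKO replicate 1 at 1.08, without control replicate 2 at 1.06 and under median-ratio scaling at 1.0), and Hmgcs1, Sqle, Cyp51, Ebp and Hsd17b7 were the other 5 not called.

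**Figure D2:**
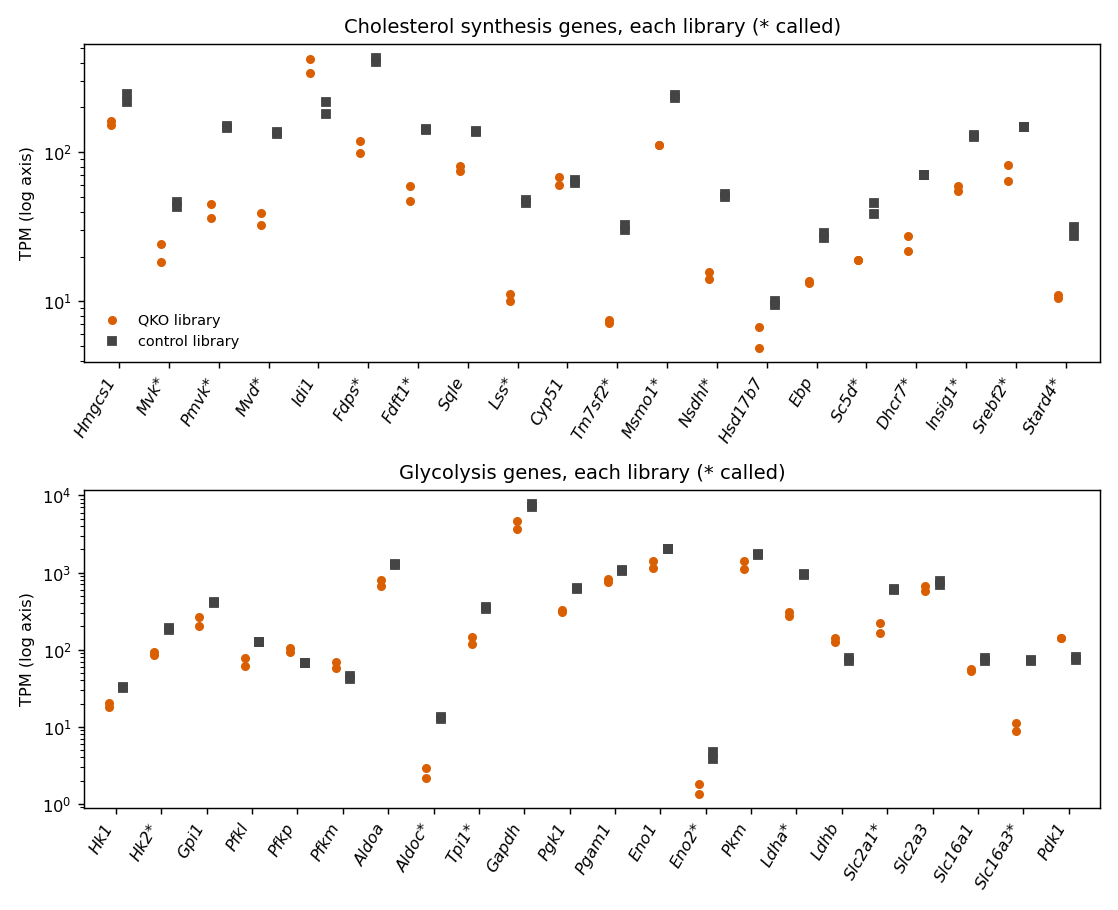
TPM (log axis) of each QKO library (circles) and each control library (squares) for 20 of the 24 cholesterol synthesis genes (top) and the 22 glycolysis genes (bottom), with an asterisk at each called gene. The QKO circles lie below the control squares in most genes, while Idi1, Pfkp, Pfkm, Ldhb and Pdk1 have them above.

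Part of glycolysis fell. Of 22 listed genes, 7 were called lower and 0 higher (median -0.82, 5 to 10 lower over the alternative settings), and all 22 were at 1 TPM or more in all 4 libraries. Glucose enters through Slc2a1, which stood at 224 and 166 TPM in QKO and 592 and 604 TPM in control (log2 fold change -1.63, SE 0.133, adjusted p = 1.3e-07), and lactate leaves through Slc16a3, at 11.1 and 8.79 TPM in QKO and 70.8 and 74.5 TPM in control (log2 fold change -2.76, SE 0.135, adjusted p = 3.9e-10). Ldha, which makes lactate, was at 307 and 275 TPM in QKO and 925 and 950.0 TPM in control (log2 fold change -1.69, SE 0.0879, adjusted p = 8.3e-10). QKO and control libraries were separate in all 3. Aldoc (-2.00), Tpi1 (-1.39), Hk2 (-1.04) and Eno2 (-1.03) were the other genes called lower; Hk2 lost the call without QKO replicate 2 or control replicate 2 (both -0.99) and under median-ratio scaling (-0.97), and Eno2 without QKO replicate 2 (-0.90), without control replicate 1 (-0.92) and under that scaling (-0.98). Gapdh, the most abundant gene not called, was at 4708 and 3656 TPM in QKO and 7653 and 7137 TPM in control (log2 fold change -0.83, and -1.02 and called without QKO replicate 1). Ldhb and Pdk1, which diverts pyruvate from mitochondria, had positive values of 0.81 and 0.87 that were not called.

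Respiratory chain genes were not called lower. Of 48 oxidative phosphorylation genes, 1 was called higher (Cox6c, at 2471 and 2841 TPM in QKO and 1074 and 1098 TPM in control) and 0 lower, with a median of 0.01. Slc25a4, which exchanges ADP and ATP across the mitochondrial membrane, was at 248 and 212 TPM in QKO and 636 and 601 TPM in control (log2 fold change -1.42, SE 0.104, adjusted p = 3.8e-08), and Ndufa4l2, a hypoxia-inducible subunit homologue, at 0.716 and 0.654 TPM in QKO and 13.8 and 13.9 TPM in control (log2 fold change -3.14, SE 0.187, adjusted p = 3.8e-09); both were lower in both QKO libraries.

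**Figure D3:**
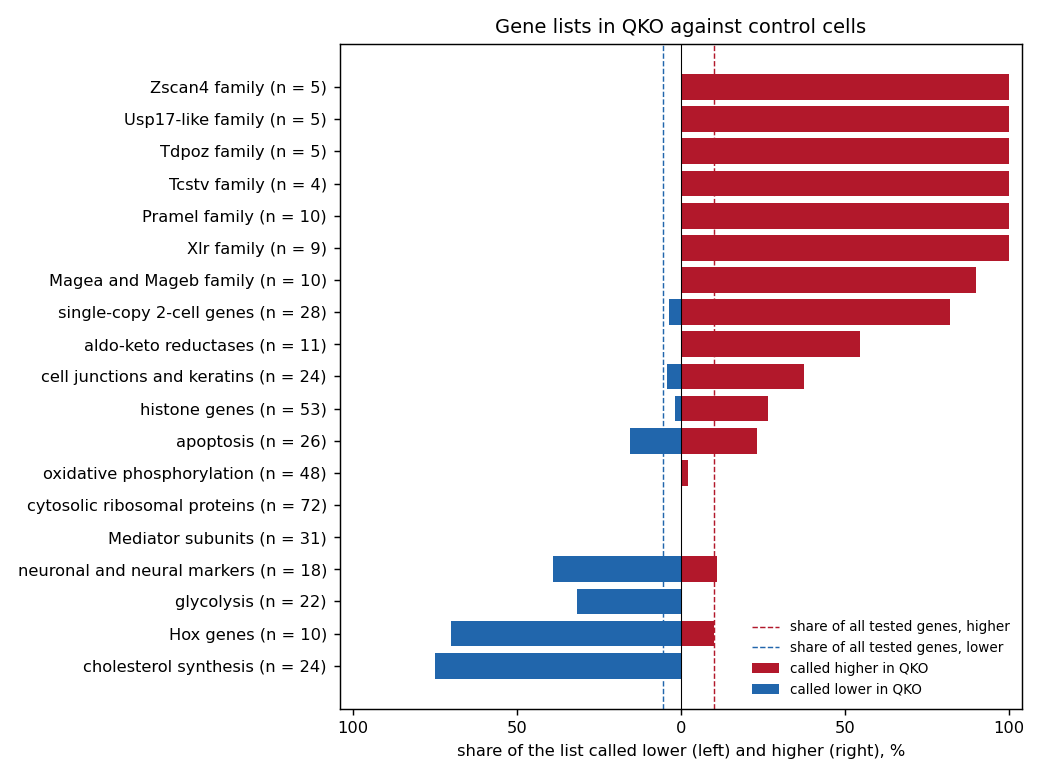
Share of each list's members (percent) called lower in QKO, drawn to the left, and called higher, drawn to the right, with the number of members n beside each name and dashed lines at the shares of all genes tested (5.42% and 10.1%). Families of the 2-cell embryo and of the X chromosome fill the right side, and cholesterol synthesis (18 of 24 genes) and Hox genes (7 of 10) reach furthest to the left.

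Cell cycle and death genes changed at a few named points. Ccnd1, the cyclin of G1 entry, stood at 2.51 and 2.69 TPM in QKO and 39.9 and 42.8 TPM in control (log2 fold change -3.56, SE 0.126, adjusted p = 8.5e-12), and Ccnd3 at 409 and 311 TPM in QKO and 750.1 and 722 TPM in control (log2 fold change -1.04, not called without QKO replicate 2 at -0.84 or under median-ratio scaling at -0.97). Cdkn1a, the inhibitor p21, was at 178 and 162 TPM in QKO and 44.3 and 39.6 TPM in control (log2 fold change 1.99, SE 0.119, adjusted p = 3.9e-09). Of 18 genes for G1 cyclins and inhibitors, these 2 cyclins were called lower and 4 genes higher, the others being Cdkn2b (1.48), Cdk6 (1.44) and Rb1 (1.18). Of 26 apoptosis genes, 6 were called higher and 4 lower. Pmaip1, the BH3-only protein Noxa, was at 143 and 150.0 TPM in QKO and 56.2 and 59.8 TPM in control (log2 fold change 1.32, SE 0.209, adjusted p = 0.0001). Bok, Bak1 and Bik, which promote death, and Bcl2l2, which opposes it, were called lower at -1.48, -1.10, -1.09 and -1.51; without QKO replicate 2, Bak1 and Bik were at -0.89 and not called. The libraries did not overlap for Ccnd1, Cdkn1a and Pmaip1.

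Part of the epithelial genes rose and part of the neural genes fell. Grhl2, a transcription factor of epithelia, stood at 12.7 and 13.7 TPM in QKO and 0.649 and 0.768 TPM in control (log2 fold change 3.05, SE 0.171, adjusted p = 1.9e-09), and Pkp2, a desmosome plaque protein, at 108 and 97.6 TPM in QKO and 12.1 and 12.7 TPM in control (log2 fold change 2.95, SE 0.138, adjusted p = 2.3e-10). Epcam, an epithelial adhesion molecule, was at 316 and 257 TPM in QKO and 122 and 111 TPM in control (log2 fold change 1.29, SE 0.117, adjusted p = 4.3e-07). Among junction and keratin genes 9 of 24 were called higher and 1 lower (median 0.55), with Esrp1 at 2.10, Gja1 at 1.86 and Krt18 at 1.77 on the log2 scale. Of 18 neural genes, 7 were called lower and 2 higher (median -0.48). Islr2, an axon guidance gene, was at 1.88 and 1.95 TPM in QKO and 39.4 and 35.8 TPM in control (log2 fold change -3.72, SE 0.18, adjusted p = 3.3e-10), Igsf21, a synaptic adhesion gene, at 2.31 and 1.18 TPM in QKO and 32.2 and 24.95 TPM in control (log2 fold change -3.45, SE 0.212, adjusted p = 5.6e-09) and Olig2, an oligodendrocyte and motor neuron factor, at 5.56 and 4.62 TPM in QKO and 46.5 and 35.9 TPM in control (log2 fold change -2.79, SE 0.183, adjusted p = 1.1e-08). The 2 called higher were Sox3 (1.38, and 0.90 and not called without QKO replicate 1) and Neurod1 (1.67).

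Most Hox members and a few retinoic acid genes were lower. Of 10 Hox members (42 in the table), 7 were called lower and 1 higher (median -1.12, 5 to 7 lower over the alternative settings), but 6 of the 10 passed through control libraries alone. A run of 6 neighbours from Hoxa3 to Hoxa10 (chr6:52169062-52240854) were all called lower, among them Hoxa5 at 0.846 and 0.46 TPM in QKO and 6.7 and 4.92 TPM in control (log2 fold change -2.04, SE 0.208, adjusted p = 1.4e-06) and Hoxa10 at 0.521 and 0.952 TPM in QKO and 6.36 and 5.14 TPM in control (log2 fold change -1.96, SE 0.153, adjusted p = 7.4e-08). Hoxc13, called higher, stood at 2.25 and 2.01 TPM in QKO and 0.298 and 0.214 TPM in control (log2 fold change 1.32, SE 0.132, adjusted p = 1.2e-06). Stra8, which licenses meiosis in response to retinoic acid, stood at 25.7 and 20.6 TPM in QKO and 330.3 and 345 TPM in control (log2 fold change -3.82, SE 0.0981, adjusted p = 2.8e-13), and 4 of 17 retinoic acid genes were called lower and 0 higher. Without QKO replicate 2 they were 2 lower and 1 higher, 3 of the 17 passed through control libraries alone, and the second table had 4 called higher and 4 lower of 15 tested. In Stra8 and in Hoxa5 the QKO libraries were far below the control libraries.

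Signalling lists were mixed. Of 23 Wnt genes, 2 were called higher (8.7%) and 3 lower (13.0%). The FGF and ERK feedback list had 3 and 3 of 28 (10.7% each). The Nodal and BMP list had 1 and 4 of 24 (4.17% and 16.7%). Over all genes tested, 10.1% were called higher and 5.42% lower, and no list share was tested against these. Cdx1, a posterior homeobox gene, was at -2.42 on the log2 scale, Fgf17 at -2.51, Inhbb at -1.91 and Dusp4, an ERK phosphatase, at 2.84. Among LIF and STAT3 genes 3 of 16 were called lower, Cish (-1.33), Gbx2 (-1.18) and Junb (-1.14); without QKO replicate 2, Gbx2 and Junb were at -0.97 and -0.76 and not called, and Junb without control replicate 1 at -0.92. Otx2, a factor of the formative state and the anterior epiblast, stood at 84.99 and 76.5 TPM in QKO and 5.12 and 5.04 TPM in control (log2 fold change 3.75, SE 0.13, adjusted p = 6.7e-12). Among YAP and TEAD targets 4 of 14 were called higher and 0 lower, among them Ctgf at 66.5 and 57.4 TPM in QKO and 21.2 and 19.4 TPM in control and Cyr61 at 53.1 and 41.1 TPM in QKO and 18.5 and 17.1 TPM in control, both secreted matrix proteins.

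Several other lists held some members with large changes. Of 21 matrix protease and inhibitor members, 5 were called higher and 2 lower, and 8 of the 21 passed through QKO libraries alone. Mmp12, a macrophage elastase, stood at 83.4 and 80.8 TPM in QKO and 0.41 and 0.52 TPM in control (log2 fold change 5.83) and Mmp14, a membrane-bound protease, at 8.85 and 6.97 TPM in QKO and 61.7 and 55.1 TPM in control (log2 fold change -2.74). Ctsc, a lysosomal protease, was at 29.01 and 25.7 TPM in QKO and 2.96 and 2.86 TPM in control (log2 fold change 2.85), and Ly6a, the stem cell antigen Sca-1, at 36.99 and 39.01 TPM in QKO and 0.202 and 0.736 TPM in control (log2 fold change 4.75). In all 4 the QKO and control libraries were separate. Among blood and immune members 5 of 11 were called higher and 1 lower, and 5 of the 11 passed through QKO libraries alone. The 24 listed markers summed to 506.1 and 398.9 TPM in QKO and 147.5 and 139.4 TPM in control, and 4 of them (Cd209a, Lyz2, Tyrobp and Lcp2) were at 0 in all 4 libraries. Whether blood or immune cells were present in the libraries, and what part they would have in other results, was not tested. Heat shock genes Hspa1a (2.05) and Hspa1b (1.45), near-identical copies, and the chaperone gene Dnajb9 (2.05) were called higher, 3 of 24 in that list. Of 53 histone genes, 14 were called higher and 1 lower (median 0.71), with Hist1h2bc at 55.0 and 57.6 TPM in QKO and 15.5 and 16.7 TPM in control and Hist1h4i at 108 and 95.7 TPM in QKO and 31.8 and 35.5 TPM in control; libraries were made from polyadenylated RNA, which most replication-dependent histone transcripts lack.

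The remaining genes with the lowest folds came from different roles. Pnp2, a purine nucleoside phosphorylase, stood at 0.241 and 0 TPM in QKO and 15.8 and 13.9 TPM in control (log2 fold change -3.83, SE 0.179, adjusted p = 2.3e-10). B4galnt4, a glycosyltransferase, was at 5.59 and 3.31 TPM in QKO and 57.3 and 52.3 TPM in control (log2 fold change -3.39, SE 0.183, adjusted p = 1.3e-09), and Igfbp4, which binds insulin-like growth factors, at 1.19 and 1.13 TPM in QKO and 17.3 and 17.7 TPM in control (log2 fold change -3.10, SE 0.185, adjusted p = 3.9e-09). Tcf15, a mesoderm and epiblast factor, was at 129 and 80.7 TPM in QKO and 691 and 398 TPM in control (log2 fold change -2.35, SE 0.351, adjusted p = 5.9e-05) and lay in a run of 4 neighbours called lower (chr2:151969398-152149097). No QKO library of these 4 genes reached a control library. A run of 5 neighbours from Ifitm3 to Ano9 (chr7:141009586-141117806), B4galnt4 among them, had log2 fold changes of -3.39 to -1.28.

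Few genes of other machinery were called. None of 72 cytosolic ribosomal protein genes, 31 Mediator subunits or 11 H3K9 demethylases was called by limma, with medians of 0.14, -0.13 and -0.09, although 30, 14 and 5 of them had an unadjusted p under 0.05. Of 33 DNA replication genes, 1 was called lower (Tk1, -1.68), and of 24 mitosis genes 1 higher (Mad2l1, 1.06, and 0.95 and not called without QKO replicate 2). Among 22 cofactors of H3K9 methylation and HP1 genes, Atf7ip, which stabilises Setdb1, stood at 121 and 114 TPM in QKO and 39.7 and 43.1 TPM in control (log2 fold change 1.49, SE 0.17, adjusted p = 4.6e-06) and Atf7ip2, its germline homologue, was the other gene called higher (1.54). Of 27 Polycomb genes, Bmi1 was called higher (1.01) and Cbx2 lower (-1.03), and both lost the call without QKO replicate 2, at 0.87 and -0.87, Bmi1 without control replicate 1, at 0.93, and Cbx2 without control replicate 2, at -0.98, and under median-ratio scaling, at -0.96. A value near 0 that was not called does not show equal expression.

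Genes of chromosome 14 were lower as a block. Of 426 members there 70 were called lower (16.4%), against 5.83% of all members, and their median log2 fold change was -0.45. Among genes at 10 TPM or more in control, the chromosome 14 median was -0.57 over 311 genes, and the other chromosomes' medians ran from -0.32 to -0.01. Per library it was -0.57 and -0.60 in QKO, beside -0.12 and -0.23 on the other chromosomes. The same value was -0.49 in Dux-KO QKO and -0.48 in G9a;Suv39h1/2-TKO, whose titles also name the 3S1G line, and -0.17 to 0.05 in the other 5 genotypes. It was low along the whole chromosome, at -0.37, -0.62 and -0.41 in the first, middle and last 142 members, all levels included. Leaving chromosome 14 out gave 679 members lower and 1351 higher, members with no known position kept in. Copy number was not measured, so loss of the enzymes and a difference between lines cannot be told apart here. Pnp2, Mmp14, Fgf17, Rcbtb2 (-3.16), Tgm1 (-2.92), Tsc22d1 (-1.16), Bcl2l2, Fdft1 (-1.41), Rarb (-1.70) and Supt16 (-1.18) lie on chromosome 14. Without Fdft1, 17 cholesterol synthesis genes remained called lower.

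**Figure D4:**
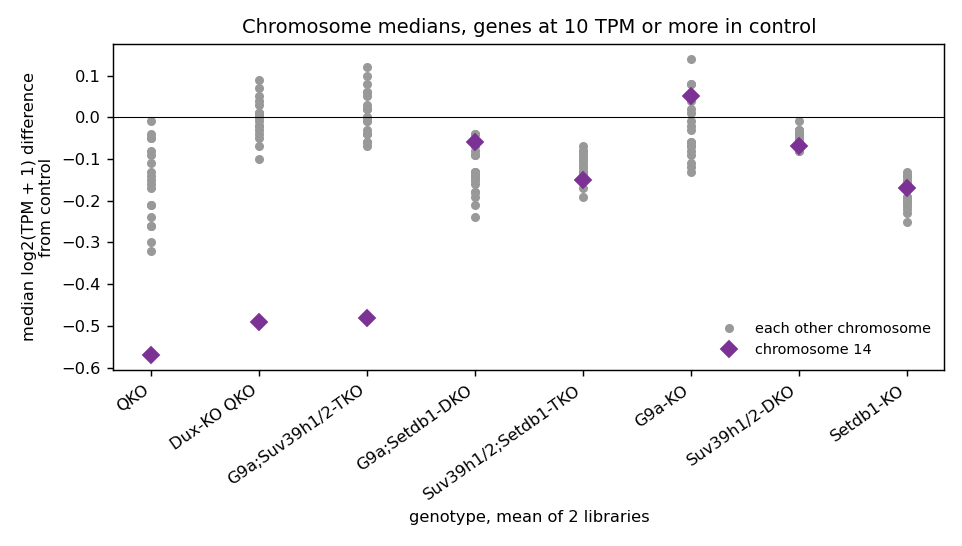
Median difference from control in log2(TPM + 1) (y axis) of genes at 10 TPM or more in control, with 1 grey point for each other chromosome and a diamond for chromosome 14, in each genotype of the first table (x axis). The diamond stands at -0.57 in QKO, -0.49 in Dux-KO QKO and -0.48 in G9a;Suv39h1/2-TKO, below all grey points of those genotypes, and among the grey points in the other 5.

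QKO was also set against the other genotypes of the first table directly. The fewest genes were called between QKO and G9a;Setdb1-DKO, with 202 genes higher (1.46%) and 248 lower (1.79%). Against Suv39h1/2;Setdb1-TKO, 793 genes were higher (5.72%) and 221 lower (1.59%), and against G9a;Suv39h1/2-TKO, 894 were higher (6.45%) and 367 lower (2.65%). Among members, these were 202 and 186, 778 and 210, and 886 and 337. The count lower than Suv39h1/2;Setdb1-TKO was 354 without QKO replicate 1, and with a pseudocount of 0.1 the counts over all genes were 431 and 414, 1357 and 426, and 1411 and 612. These 3 comparisons share the QKO libraries, and their counts were not tested against each other. Of the genotypes set against QKO here, only G9a;Suv39h1/2-TKO has the line name of QKO in its titles, with NT in place of OHT. G9a;Setdb1-DKO and Suv39h1/2;Setdb1-TKO are titled as lines SG and SE. Gene loss therefore cannot be told apart from line, or from the words OHT and NT, in comparisons between genotypes here and below.

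Dux and Zscan4d were highest in QKO. Dux was at 25.7 and 21.8 TPM in QKO, 16.3 and 15.9 TPM in G9a;Setdb1-DKO, 11.6 and 12.8 TPM in Suv39h1/2;Setdb1-TKO, 12.5 and 14.1 TPM in Setdb1-KO, 2.76 and 2.91 TPM in G9a-KO and 1.77 and 1.84 TPM in G9a;Suv39h1/2-TKO. It stood at 0.266 and 0.207 TPM in Suv39h1/2-DKO and was listed at 0 in both Dux-KO QKO libraries. The Suv39h1/2;Setdb1-TKO and Setdb1-KO libraries overlap in this order. Zscan4d stood at 610 and 683 TPM in QKO, 333 and 315 TPM in G9a;Setdb1-DKO, 224 and 248 TPM in Setdb1-KO, 159.8 and 162 TPM in Suv39h1/2;Setdb1-TKO and 47.5 and 50.8 TPM in G9a-KO, with no overlap between neighbours. Among Zscan4 genes 4 of 5 and among Usp17-like genes 4 of 5 were called higher in QKO than in G9a;Setdb1-DKO. The count was 3 of 4 for Obox, 1 of 5 for Tdpoz, 1 of 4 for Tcstv and 3 of 10 for Pramel genes, of which 1 was called lower, and the Pramel median difference from control was 2.48 in QKO and 3.26 in G9a;Setdb1-DKO. Akr1c21 was at 134 and 155 TPM in G9a;Setdb1-DKO and 105 and 106 TPM in Setdb1-KO, against 1.79 and 2.63 TPM in G9a;Suv39h1/2-TKO, which keeps Setdb1 by its label.

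X-linked germline genes were higher in G9a;Setdb1-DKO than in QKO. Xlr3b was at 23.8 and 25.7 TPM in QKO, 63.1 and 69.1 TPM in G9a;Setdb1-DKO, 69.7 and 64.7 TPM in G9a-KO, 19.6 and 23.9 TPM in G9a;Suv39h1/2-TKO, 1.78 and 1.46 TPM in Setdb1-KO and 1.93 and 0.653 TPM in Suv39h1/2;Setdb1-TKO. All 9 Xlr members and 6 of 10 Magea and Mageb members were called lower in QKO than in G9a;Setdb1-DKO. The 9 Xlr members were called higher in QKO than in Suv39h1/2;Setdb1-TKO. Magea2, Magea3 and Magea6 were at -3.86, -3.71 and -3.50 on the log2 scale in QKO against G9a;Setdb1-DKO, among the lowest genes of that comparison.

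Cholesterol synthesis and glycolysis had their lowest medians in the genotypes that had lost both G9a and Setdb1. The cholesterol list had a median difference from control of -1.26 in QKO, -1.39 in Dux-KO QKO, -0.88 in G9a;Setdb1-DKO, -0.64 in Setdb1-KO, -0.55 in Suv39h1/2;Setdb1-TKO, -0.29 in G9a;Suv39h1/2-TKO, -0.21 in G9a-KO and -0.04 in Suv39h1/2-DKO. Of the 24 genes 11 were called lower in QKO than in G9a;Suv39h1/2-TKO and 1 higher, 3 lower than in Suv39h1/2;Setdb1-TKO and limma called 0 in either direction against G9a;Setdb1-DKO, where 13 had an unadjusted p under 0.05. The glycolysis list had medians of -0.82 in QKO, -0.55 in G9a;Setdb1-DKO, -0.45 in Dux-KO QKO, -0.27 in Suv39h1/2;Setdb1-TKO and in Setdb1-KO, -0.02 in G9a;Suv39h1/2-TKO and 0.04 in G9a-KO and in Suv39h1/2-DKO. Of its 22 genes 6 were called lower in QKO than in G9a;Suv39h1/2-TKO and 4 lower and 1 higher than in Suv39h1/2;Setdb1-TKO. The Hox list had medians of -1.12 in QKO and -1.06 in G9a;Suv39h1/2-TKO, and limma called 0 of its genes between them, with 6 at an unadjusted p under 0.05.

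**Figure D5:**
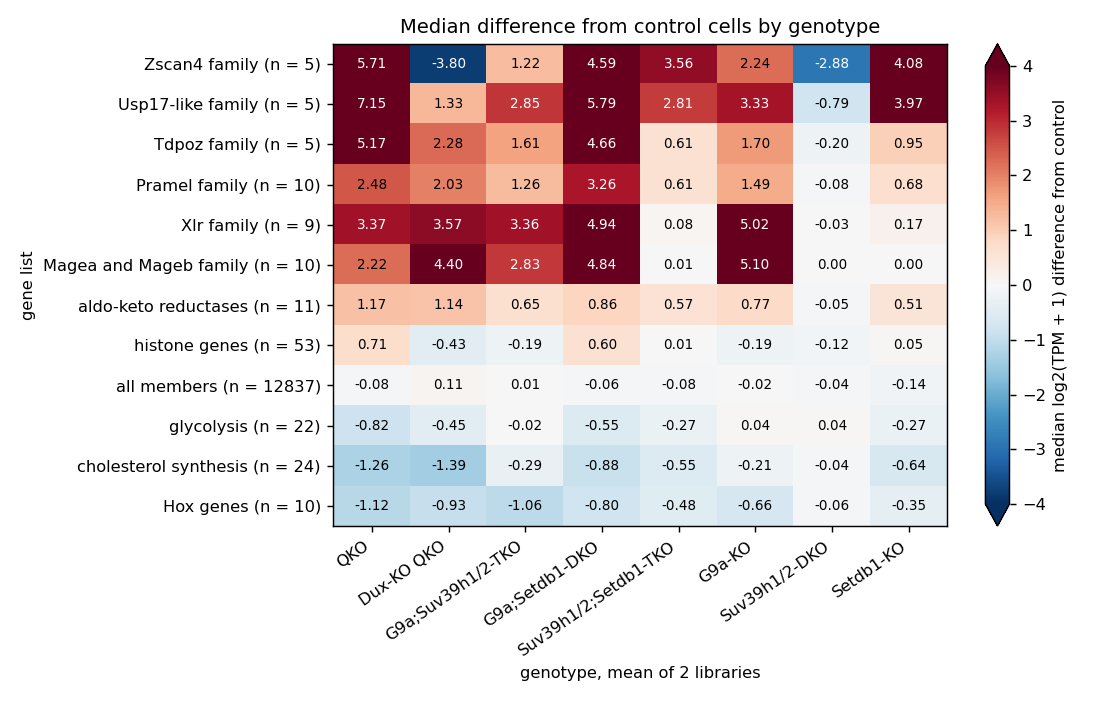
Median difference from control in log2(TPM + 1) of each list's members (rows, n members) in each genotype (columns, mean of 2 libraries), printed in the cells and coloured on a scale that ends at -4 and 4. The Zscan4 family has 5.71 in QKO and -3.80 in Dux-KO QKO, the Xlr family 3.37 in QKO and 5.02 in G9a-KO, and cholesterol synthesis -1.26 in QKO and -0.88 in G9a;Setdb1-DKO.

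Against QKO cells that also lack Dux, genes of the multicopy 2-cell families were higher in QKO and no gene of the metabolic lists was called. QKO had 253 genes higher (1.83%) and 653 lower (4.71%) than Dux-KO QKO; the lower count was 1005 without QKO replicate 1, 355 under median-ratio scaling and 1222 with a pseudocount of 0.1. All 5 Zscan4 genes, 5 of 5 Usp17-like genes and 4 of 4 Tcstv genes were called higher in QKO, as were 3 of 5 Tdpoz, 3 of 4 Obox and 4 of 10 Pramel genes, and Zscan4d was at 1.1 and 0.258 TPM in Dux-KO QKO. Of 53 histone genes 20 were also higher in QKO than in Dux-KO QKO, and 0 lower. Limma called 0 cholesterol synthesis and 0 glycolysis genes between them, with 9 and 13 at an unadjusted p under 0.05. Of the 28 single-copy 2-cell genes 11 were higher in QKO and 3 lower, and Zfp352 was at 11.9 and 11.8 TPM in Dux-KO QKO. Akr1c21 was at 458 and 450.4 TPM in Dux-KO QKO. The Dux-KO line is a separate line (3S1Gx in its titles), so loss of Dux and the line cannot be told apart.

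The change in QKO was then set against the sum of the changes in Setdb1-KO, Suv39h1/2-DKO and G9a-KO on the log2 scale, tested as 1 contrast of the fit. In all, 731 genes were above that sum (5.27%) and 463 below it (3.34%). Cyp4a12b was above it by 3.93 and Reg1 by 4.31, and Pnp2 was at -4.15 and Gata4, a cardiac and endoderm factor, at -4.32, both on chromosome 14. Above the sum were 4 of 5 Zscan4, 5 of 5 Tdpoz, 4 of 4 Tcstv, 3 of 4 Obox, 2 of 5 Usp17-like and 4 of 10 Pramel genes. For some of these families the sum holds a fall in Suv39h1/2-DKO. Against control, 5 of 5 Zscan4 and 3 of 4 Tcstv genes were called lower there and 0 higher. The Zscan4 median difference from control was -2.88 in Suv39h1/2-DKO, 4.08 in Setdb1-KO, 2.24 in G9a-KO and 5.71 in QKO. The part of that fall in these counts was not tested. Below it were 9 of 9 Xlr and 6 of 10 Magea and Mageb members, with 1 of these 10 above. For glycolysis 6 genes were below the sum and 1 above, and 3 cholesterol synthesis genes were below. Without control replicate 1 the genes above the sum numbered 330, and without control replicate 2 there were 341 above and 291 below.

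QKO and control lines that lack endogenous Dux and carry the transgene were measured in separate libraries. In the second table, QKO dox0 against control dox0 had 910 genes higher (6.59%) and 1025 lower (7.42%) of 13817 tested. Of 1353 members called higher in the first table and tested in the second, 597 were called higher there (44.1%) and 7 lower, and 88% had a positive log2 fold change. Of 740 called lower, 385 were called lower there (52%) and 1 higher. Read the other way, 74.9% of the members higher in the second table were higher in the first, and 39.8% of those lower. Within this comparison, control dox0 replicate 1 stood apart in small nucleolar host genes. Its mean log2 level was 4.24, against 2.7 in control dox0 replicate 2 and 2.81 and 2.85 in QKO dox0. Without it the second table had 922 genes higher (6.67%) and 798 lower (5.78%), and the shared calls were 583 (43.1%) and 330 (44.6%). Like levels were read in replicate 2 of Setdb1-KO dox0 (4.5), of G9a;Setdb1-DKO dox0 (4.16) and of some groups with other dox values, such as G9a-KO dox1 (4.61). These libraries stayed in the fit, so its shared spread still holds this difference between libraries.

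Named groups held in part in these libraries. Akr1c21 was at 179 and 168 TPM in QKO dox0 and 0.514 and 0.752 TPM in control dox0 (log2 fold change 6.74) and Zscan4d, with endogenous Dux lost, at 48.1 and 44.5 TPM in QKO dox0 and 6.6 and 6.5 TPM in control dox0 (2.65). All 5 Zscan4 and 5 Usp17-like genes were called higher, beside 3 of 5 Tdpoz, 2 of 4 Tcstv, 2 of 4 Obox and 7 of 10 Pramel genes. The level of the Dux transgene at dox0 was not examined, so its part in these values was not tested. In the first table's Dux-KO QKO, whose titles name no transgene, the Zscan4 median difference from control was -3.8. Xlr genes had 8 of 9 called higher and Magea and Mageb genes 9 of 10. Cholesterol synthesis had 11 of 24 genes called lower (14 without control dox0 replicate 1) and glycolysis 5 of 22 (6 without it). Of 8 Hox genes tested limma called 0 lower, with 6 at an unadjusted p under 0.05 in either direction, and 1 lower without that library. Chromosome 14 had a median of -0.64 in QKO dox0, and also of -0.67 in Suv39h1/2-DKO, -0.63 in Suv39h1/2;Setdb1-TKO and -0.67 in G9a;Suv39h1/2-TKO. Chromosome 8 had the highest median of any chromosome in these 4 groups, at 0.27 in QKO dox0, 0.40 in Suv39h1/2-DKO, 0.45 in Suv39h1/2;Setdb1-TKO and 0.29 in G9a;Suv39h1/2-TKO, beside medians of -0.13 to -0.11 over all genes. Of the members called in QKO dox0, 77 higher and 35 lower lay on chromosome 8 and 18 higher and 99 lower on chromosome 14; the part of these chromosomes in the counts of the second table was not tested.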

How the data were processed

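Per the labels' protocols, RNA came from a column kit that recovers DNA and RNA (AllPrep), and stranded libraries of polyadenylated RNA (TruSeq) were read from both ends on a NovaSeq. The submitters' processing notes name RSEM 1.3.1, STAR 2.7.10b, SAMtools 1.9 and Bowtie2 2.3.4.1, as well as build mm10, with no roles. The authors deposited TPM values per gene, one table for 18 libraries and one for 32, each scaled by gene length and library total. They give no read counts, so depth and counting error are unknown, and 0 columns lacked a sample.

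TPM values were taken to log2(TPM + 1), genes under 1 TPM in all but at most 1 library were left out, and limma 3.58.1 (R 4.3.3, trend, 9 residual degrees of freedom in the first table and 16 in the second) was fitted to each table apart, with Benjamini-Hochberg adjustment over all genes tested (13862 and 13817). Calls needed an adjusted p under 0.05 together with a log2 fold change of 1 or more in size. The procedure was tested on simulated data. Positions came from GENCODE M21, matched by symbol for 12335 of 12837 members, and promoters from RefSeq GRCm38.p6. No label says that equal replicate numbers mark a shared culture or day, so the numbers were not used to pair samples. The members and lists were chosen with earlier results of these data known.

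The text names the targeted genes and Dux, the 12 highest and 12 lowest called members and the 8 largest rises and falls in mean TPM, predicted names left out, up to 4 called members and the most abundant uncalled member of each list, the 5 highest and lowest genes of each other comparison, and members of runs. A choice was made among these, and genes named beyond them (such as Srebf2, Epcam, Pmaip1, Nanog and Hist1h2bc) were chosen for their role after their values were seen. Some members counted in the lists are not reported here by name. The counts of each comparison were recomputed with median-ratio scaling, with a pseudocount of 0.1, without the filter, with a replicate block, with only the groups compared in the fit and without each library of those groups, and gene values and list counts likewise for QKO against control. Leaving out chromosome 14, leaving out control dox0 replicate 1 for the second table's lists and, for the sum of separate losses, leaving out single-loss libraries or fitting only the groups compared were chosen after seeing the data.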

Additional observations from a re-analysis of the deposited data

Results flagged for a closer look

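The following 8 genes were called in opposite directions in QKO against control in the 2 tables, and the difference between the tables was not tested. The log2 fold changes in the first and the second table were 1.32 and -1.57 for Dab2, an endocytic adaptor of endoderm, and 1.89 and -1.45 for Srgn, a proteoglycan. They were -2.20 and 1.07 for Lgals1, a lectin, and 1.03 and -1.94 for Stag3, the meiotic cohesin subunit. Pga5, a pepsinogen gene, was at 1.58 and -1.09, and Slc19a3, a thiamine transporter, at 1.27 and -1.20. P4ha2, a collagen hydroxylase, was at 1.47 and -1.23, and Gpd1, a glycerol phosphate dehydrogenase, at 1.02 and -1.04; without control dox0 replicate 1 of the second table neither of these was called there. Dab2 was at 26.8 and 27.6 TPM in QKO and 10.4 and 10.2 TPM in control of the first table, and at 13.8 and 18.4 TPM in QKO dox0 and 43.8 and 55.2 TPM in control dox0 of the second. The lines of the second table also differ from those of the first in the transgene and in the loss of Dux from control cells.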

How the results depend on the processing

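Of 140 counts recomputed under an alternative, 126 stayed within 1.5 times their value and 14 moved; the cause was not tested. With a pseudocount of 0.1, which widens folds of low genes, the count higher in QKO than control was 2133, and the counts higher and lower were 431 and 414 against G9a;Setdb1-DKO, 1357 and 426 against Suv39h1/2;Setdb1-TKO and 1411 and 612 against G9a;Suv39h1/2-TKO, with 1222 lower against Dux-KO QKO. Median-ratio scaling gave 355 lower against Dux-KO QKO; it moved the median of all genes in QKO against control to 0.01, against -0.05, and the share of calls that were higher to 70.2%, against 65.2%. Leaving out 1 library at a time gave 1384 to 1458 genes higher and 585 to 1001 lower in QKO than control, 195 to 280 and 200 to 315 against G9a;Setdb1-DKO, 765 to 854 and 179 to 354 against Suv39h1/2;Setdb1-TKO, 899 to 972 and 319 to 505 against G9a;Suv39h1/2-TKO, 243 to 293 and 517 to 1005 against Dux-KO QKO, 820 to 922 and 798 to 1347 in the second table, and 330 to 983 above and 291 to 482 below the sum of the separate losses. The highest lower counts against Suv39h1/2;Setdb1-TKO (354) and Dux-KO QKO (1005) were those without QKO replicate 1. The replicate number as a block gave 1412 higher and 753 lower against control; same-numbered deviations of QKO and control correlated at 0.302, and over 36 pairs of groups from -0.059 to 0.622. Of 1116 checks of the named genes, 1088 kept the call, 24 lost it, 4 gained it and 0 changed sign, in 16 genes near the fold threshold. Without chromosome 14, 1374 genes were higher and 681 lower. With TPM alone, a gene near 1 TPM cannot be given a counting error.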
